A study of Homo sapiens with 5 samples.

Results

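The 46 genes described here encode proteins that repair broken, crosslinked or mismatched DNA in human cells. They were chosen by symbol and function, with earlier results of these data known, as a list of break, crosslink and mismatch repair genes among the 26475 gene rows of the deposited tables, and all 46 had a row and passed the expression filter of 1 CPM (counts scaled to the library total) in at least 1 library. The cells were MDA-MB-231, an established human breast cancer line of the triple-negative, mesenchymal kind, and the series asks how a short stay at low oxygen compares with a long one and what remains after oxygen returns. Total RNA gave 5 mRNA sequencing libraries with 1 per condition: 1% O2 for 1 day (acute hypoxia), 20% O2 for 1 day, 1% O2 for 10 days (chronic hypoxia), reoxygenated cells that were held for 10 days at 1% O2 and then for 10 days at 20% O2, and 20% O2 for 10 days. All groups come from 1 cell line with no added drug or gene change in the labels, and the reoxygenated cells had been in culture longer than any control.

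Double-strand breaks are sensed by the MRN complex and the kinases ATM and ATR. They are then either joined end to end, with the Ku proteins holding the ends, or copied from the sister chromatid by homologous recombination, in which BRCA1 and BRCA2 help to load a recombinase onto resected DNA. The Fanconi anaemia proteins clear crosslinks between the strands at stalled replication forks, and mismatch repair removes errors left by the replication polymerases. Recombination and crosslink repair act mainly while DNA is replicated, and genes of these pathways are known to be transcribed mostly in cells that are entering or passing through S phase.

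The libraries held between 7719797 (reoxygenated) and 12544953 (20% O2, day 10) estimated counts, so that 1 read stands for 0.0816 to 0.126 CPM. The lowest count of any of the 46 genes in any library was 47. The hypoxia check genes followed the labels: CA9 had 51.9 CPM at 1% and 5.10 CPM at 20% O2 after 1 day, 68.7 CPM at 1% and 8.48 CPM at 20% O2 after 10 days, and 3.65 CPM in reoxygenated cells. The mesenchymal markers VIM, CD44, AXL, ZEB1, SNAI2 and CAV1 summed to 4833 CPM at 1% and 4926 CPM at 20% O2 after 1 day, and 2545 CPM at 1% O2 and 3318 CPM in reoxygenated cells against 4155 CPM at 20% O2 after 10 days. At day 10, 5 of these 6 lay below 0, with a median log2 difference of −0.54, and the part of this in other differences was not tested. The 6 luminal markers summed to between 290 and 488 CPM, of which KRT8 held 253 to 462 CPM, and 10 markers of blood, endothelium and fibroblasts summed to 6.45 to 20.3 CPM, highest at 1% O2 day 10, with 3 of them at 0 in every library. With 1 library per condition, a difference between 2 libraries has no replicate check and no p-value. It compares those libraries, not the conditions. The range in brackets after a log2 difference is the exact 95% Clopper-Pearson interval for the ratio of both counts, which covers no other error than that of counting. A gene is called higher or lower where its log2 difference of CPM is at least 1 in size, which is 2-fold.

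After 10 days at 1% O2, 12 of the 46 repair genes were lower by this rule than at 20% O2 and 0 were higher. Over all 13940 genes tested, 7.04% were lower and 14.4% were higher. The median log2 difference of the 46 was −0.62, against 0.02 over all genes, and 39 lay below 0, against 49.1% of all genes. Scaled by library totals, which moves the median of all genes to 0.14, 6 of the 46 were lower and their median was −0.50, where 4.79% of all genes were lower and 16.7% higher. Counting intervals lay wholly below 0 for 35 genes and wholly above 0 for 4, and they included 0 for 7, while 35.8% of all genes lay wholly below and 33.9% wholly above 0. After 1 day at 1% O2, 0 of the 46 were lower and 0 were higher, while 0.839% of all genes were lower and 2.12% higher. The median of the 46 after 1 day was −0.03, and the members ran from −0.49 to 0.32. The library of 10 days at 1% O2 was the lowest of the 5 for 34 of the 46 genes (73.9%) and for 37.5% of all genes.

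**Figure D1:**
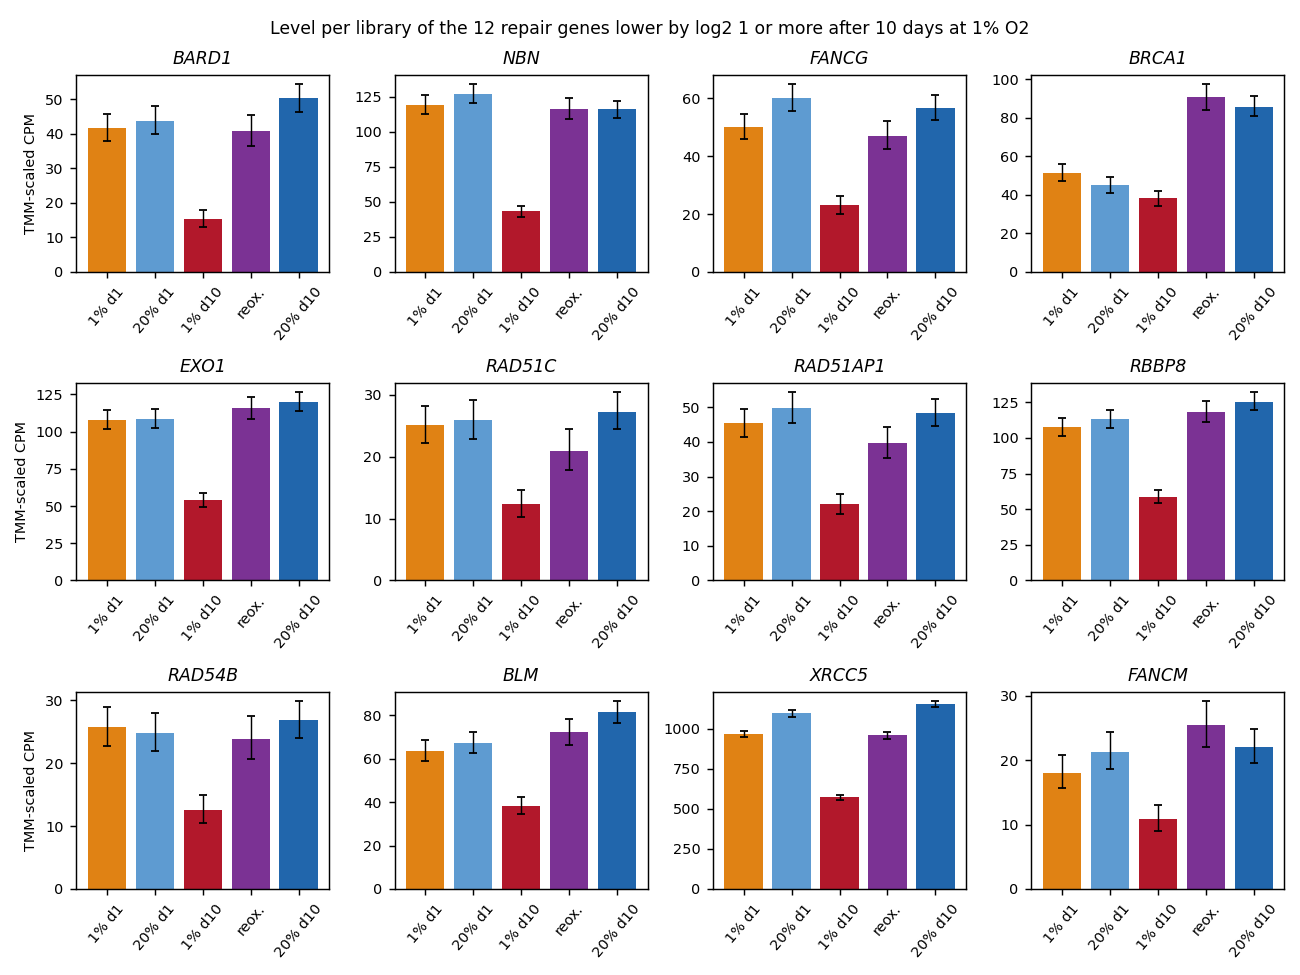
TMM-scaled level (CPM, from 0) of the 12 repair genes that were lower by log2 1 or more after 10 days at 1% O2, with 1 bar per library and exact Poisson 95% intervals for counting error. In each panel the bar of 1% O2 at day 10 is the lowest of the 5 libraries, at 15.4 CPM for BARD1 and 43.1 CPM for NBN.

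Marker genes of S phase that are not among the 46 were low in the same library. All 37 that were measured lay below 0 after 10 days at 1% O2, 25 of them past the rule, with a median of −1.10. Their summed level was 5246 CPM at 1% and 5628 CPM at 20% O2 after 1 day, and 2540 CPM at 1% O2 and 4772 CPM in reoxygenated cells against 5408 CPM at 20% O2 after 10 days. RRM2, a subunit of the enzyme that makes deoxyribonucleotides, differed by −1.78 (−1.88 to −1.69) after 10 days, and CDCA7 by −1.85 (−2.16 to −1.57). The part of the share of cells in S phase in the repair gene differences was not tested, and in RNA from a whole culture fewer cells of a kind and less RNA per cell cannot be told apart.

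Promoter letters were compared because so many of these genes were low in the same library. E2F factors, which drive genes of S phase entry, are known to bind sites such as TTCCCGC. This word and its relatives with CG, GC or GG in place of the CC that follows TT, on either strand and overlaps allowed, stood in the window from 250 bases before to 50 after a RefSeq start in 21 of the 40 repair genes with a window (52.5%), and in 15.3% of 27305 genes. Those 27305 are all genes with a RefSeq window, whether or not they passed the expression filter, which every repair gene here passed. The 2 shares are therefore not from like sets of genes. Of the 21 genes with such a word 6 were lower by the rule at day 10, and of the 19 genes without one 3 were. The median difference was −0.62 with the word and −0.27 without it. The 30 bases around the word nearest to a start are shown for those 6 genes, read 5′ to 3′ on the gene's own strand, with the word in capitals (GRCh38.p14, RefSeq).
BARD1, chr2:214809662-214809691, minus strand: gccgtcccagacGCGGGAAgagcttggccg
FANCG, chr9:35080009-35080038, minus strand: ccctcggtggaaGCGGGAAcccaggaggac
BRCA1, chr17:43125394-43125423, minus strand: caacggaaaagcGCGGGAAttacagataaa
EXO1, chr1:241848197-241848226, plus strand: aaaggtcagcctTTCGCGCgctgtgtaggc
RAD51AP1, chr12:4538857-4538886, plus strand: gtctggttttggGCGGGAAttgaaaccgcc
BLM, chr15:90717337-90717366, plus strand: ggcaagcttccgGCGGGAAgtgagccaggg
In 5 of the 6 the letters are GCGGGAA, which is TTCCCGC read on the other strand, and in BLM the window held 3 such words. The word lies before the RefSeq start in FANCG, BRCA1 and RAD51AP1 and after it in BARD1, EXO1 and BLM.

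The same words with a further T in front stood in 9 of the 40 genes (22.5%) and in 3.99% of the same 27305 genes. EXO1 alone of those 9 was lower by the rule, against 8 of the 31 genes without the longer word. The median difference at day 10 was −0.60 with the longer word and −0.54 without it. The word TTTGAA, or the same with C in place of the last T, matches the cell cycle element of mitotic genes. It stood in 5 of the 40 (12.5%), against 19.5% of the 27305. Of those 5 genes 0 were lower by the rule, against 9 of the 35 without it, with medians of −0.22 and −0.60. The core of the hypoxia response element, which is CGTG with A or G before it, stood in 31 of the 40 (77.5%), against 52.4% of the 27305. Of the 31 genes with this core 8 were lower by the rule, against 1 of the 9 without it. The median difference at day 10 was −0.60 with this core and −0.21 without it. Matching letters are no evidence of binding. The E2F and hypoxia words consist mostly of C and G, and the content of C and G in these windows was not measured. NBN, PRKDC, WRN, RAD54B, XRCC5 and FANCI are among the 46 but are not in these counts.

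Among the sensors of breaks and the checkpoint kinases, NBN stood apart. NBN encodes nibrin, the subunit of the MRN complex that brings it to chromatin and to ATM. It had 119 CPM at 1% and 127 CPM at 20% O2 after 1 day, and 43.1 CPM at 1% O2 and 116 CPM in reoxygenated cells against 116 CPM at 20% O2 after 10 days. Chronic hypoxia was thus the low library and the other 4 lay between 116 and 127 CPM. NBN had a difference of −1.42 (−1.58 to −1.27) at day 10 and of −0.09 (−0.20 to 0.02) at day 1. The partners of nibrin did not share this size of difference: the nuclease gene MRE11A differed by −0.31 (−0.45 to −0.16) and RAD50, which tethers the ends, by −0.02 (−0.12 to 0.07). RAD50 shares 77.7% of its 50-base words with an overlapping gene that is not analysed here, so its level is less certain.

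The kinases split in the same way. ATR, which responds to single-stranded DNA at stalled forks, had 53.5 CPM at 1% and 51.4 CPM at 20% O2 after 1 day, and 34.6 CPM at 1% O2 and 83.4 CPM in reoxygenated cells against 59.8 CPM at 20% O2 after 10 days. Its effector kinase CHEK1 had 88.1 CPM at 1% and 89.2 CPM at 20% O2 after 1 day, and 42.6 CPM at 1% O2 and 90.7 CPM in reoxygenated cells against 80.7 CPM at 20% O2 after 10 days. ATR differed by −0.79 (−0.97 to −0.61) and CHEK1 by −0.92 (−1.09 to −0.76) at day 10. Neither was past the rule, which lies within the interval of CHEK1 but not within that of ATR. ATM, the kinase of double-strand breaks, lay on the other side of 0, at 123 CPM at 1% and 98.8 CPM at 20% O2 after 1 day, and at 143 CPM at 1% O2 and 158 CPM in reoxygenated cells against 111 CPM at 20% O2 after 10 days. Its differences were 0.32 (0.20 to 0.44) at day 1 and 0.37 (0.26 to 0.47) at day 10. The ATM effector CHEK2 differed by 0.37 (0.06 to 0.69) at day 10, with 103 to 178 counts per library, and 4.81% of its words occur in other genes.

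The genes of chromatin marking around a break had smaller differences, with 0 of 5 past the rule and a median of −0.21 at day 10. H2AFX, the histone variant that is phosphorylated beside breaks, was the lowest of them, with 117 CPM at 1% and 118 CPM at 20% O2 after 1 day, and 47.4 CPM at 1% O2 and 82.7 CPM in reoxygenated cells against 85.1 CPM at 20% O2 after 10 days. It differed by −0.84 (−1.00 to −0.69) at day 10, and it also differed by −0.47 (−0.59 to −0.35) between day 10 and day 1 at 20% O2. MDC1, which binds the phosphorylated histone, the ubiquitin ligase RNF168 and the ligase RNF8 lay between −0.21 and −0.06. TP53BP1, which shields ends from resection and favours joining, was the highest at 0.31 (0.19 to 0.43), with 111 CPM at 1% O2 and 120 CPM in reoxygenated cells against 89.3 CPM at 20% O2 after 10 days.

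End joining divided between its Ku proteins and its ligase. XRCC5, which encodes Ku80, had 967 CPM at 1% and 1095 CPM at 20% O2 after 1 day, and 571 CPM at 1% O2 and 958 CPM in reoxygenated cells against 1152 CPM at 20% O2 after 10 days. Its counts were high, so its difference of −1.01 at day 10 had a narrow interval (−1.06 to −0.97) that spans the rule. XRCC6, which encodes Ku70, differed by −0.69 (−0.73 to −0.64) at day 10 and shares 13.5% of its words with other genes. The kinase gene PRKDC, which acts with Ku, had 1008 CPM at 1% and 882 CPM at 20% O2 after 1 day, and 777 CPM at 1% O2 and 957 CPM in reoxygenated cells against 935 CPM at 20% O2 after 10 days. LIG4, the ligase of this route, differed by −0.27 (−0.48 to −0.06) and its partner XRCC4 by 0.01 (−0.24 to 0.26).

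Against 20% O2 at day 10, the BRCA1 and BRCA2 axis, with resection, was the role with the lowest median, −1.10 over 5 genes. Of these 3 were past the rule and all lay below 0. For day 10 over day 1 of 20% O2 all 5 lay above 0, with a median of 0.20. Against 20% O2 at day 1, BRCA1, BRCA2 and PALB2 differed by −0.24, −0.41 and −0.39. RBBP8 and BARD1 differed by −0.95 and −1.49 there, and the helicase genes BRIP1, BLM and WRN by −0.91, −0.81 and −0.47. The rank thus depends on the baseline. BARD1, the obligate partner of BRCA1 in its ubiquitin ligase, had the lowest difference of the 46. It had 41.7 CPM at 1% and 43.8 CPM at 20% O2 after 1 day, and 15.4 CPM at 1% O2 and 40.7 CPM in reoxygenated cells against 50.3 CPM at 20% O2 after 10 days. Its difference was −1.69 (−1.96 to −1.45), or 3.23-fold lower at 1% O2, and its chronic minus acute difference was −1.62 (−1.93 to −1.31). RBBP8, which encodes the resection factor CtIP, had 108 CPM at 1% and 113 CPM at 20% O2 after 1 day, and 58.6 CPM at 1% O2 and 118 CPM in reoxygenated cells against 126 CPM at 20% O2 after 10 days, a difference of −1.10 (−1.24 to −0.96).

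BRCA1 itself had another pattern. It had 51.5 CPM at 1% and 45.2 CPM at 20% O2 after 1 day, and 38.1 CPM at 1% O2 and 90.8 CPM in reoxygenated cells against 85.9 CPM at 20% O2 after 10 days. The difference at day 10 was −1.17 (−1.34 to −1.00), but the 20% O2 library of day 10 was itself 1.90-fold above that of day 1, a log2 difference of 0.92 (0.77 to 1.09) and the largest of the 46 between those libraries. Set against 20% O2 at day 1, BRCA1 at 1% O2 day 10 was below 0 but not past the rule. BRCA2, which loads the recombinase, had 59.4 CPM at 1% and 52.6 CPM at 20% O2 after 1 day, and 39.6 CPM at 1% O2 and 83.9 CPM in reoxygenated cells against 73.5 CPM at 20% O2 after 10 days. PALB2, the bridge between BRCA1 and BRCA2, differed by −0.54 (−0.78 to −0.30) at day 10.

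The paralogs and partners of the recombinase included 3 more genes past the rule. RAD51C, a subunit of both paralog complexes, had 25.1 CPM at 1% and 25.9 CPM at 20% O2 after 1 day, and 12.4 CPM at 1% O2 and 21.0 CPM in reoxygenated cells against 27.3 CPM at 20% O2 after 10 days. RAD51AP1, which stimulates strand invasion, had 45.4 CPM at 1% and 49.8 CPM at 20% O2 after 1 day, and 22.0 CPM at 1% O2 and 39.7 CPM in reoxygenated cells against 48.3 CPM at 20% O2 after 10 days. RAD54B, a DNA translocase, had 25.8 CPM at 1% and 24.8 CPM at 20% O2 after 1 day, and 12.6 CPM at 1% O2 and 23.9 CPM in reoxygenated cells against 26.8 CPM at 20% O2 after 10 days. Their differences at day 10 were close together, at −1.13 (−1.45 to −0.85) for RAD51C, −1.12 (−1.36 to −0.91) for RAD51AP1 and −1.08 (−1.40 to −0.80) for RAD54B. RAD54B shares 56.5% of its words with FSBP, whose row held 0 counts in every library. XRCC2 and XRCC3, which complete the paralog complexes, differed by −0.74 and −0.49. The related translocase gene RAD54L, at −0.16 (−0.45 to 0.12), and RAD51B, at 0.17 (−0.43 to 0.77) with 47 to 64 counts per library, had intervals that include 0.

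The 3 helicases lay close together. BLM, which dissolves recombination intermediates, had 63.7 CPM at 1% and 67.3 CPM at 20% O2 after 1 day, and 38.3 CPM at 1% O2 and 72.0 CPM in reoxygenated cells against 81.3 CPM at 20% O2 after 10 days. It differed by −1.08 (−1.26 to −0.92), while BRIP1, the helicase that binds BRCA1, differed by −0.96 (−1.17 to −0.76) and WRN by −0.88 (−1.14 to −0.64).

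**Figure D2:**
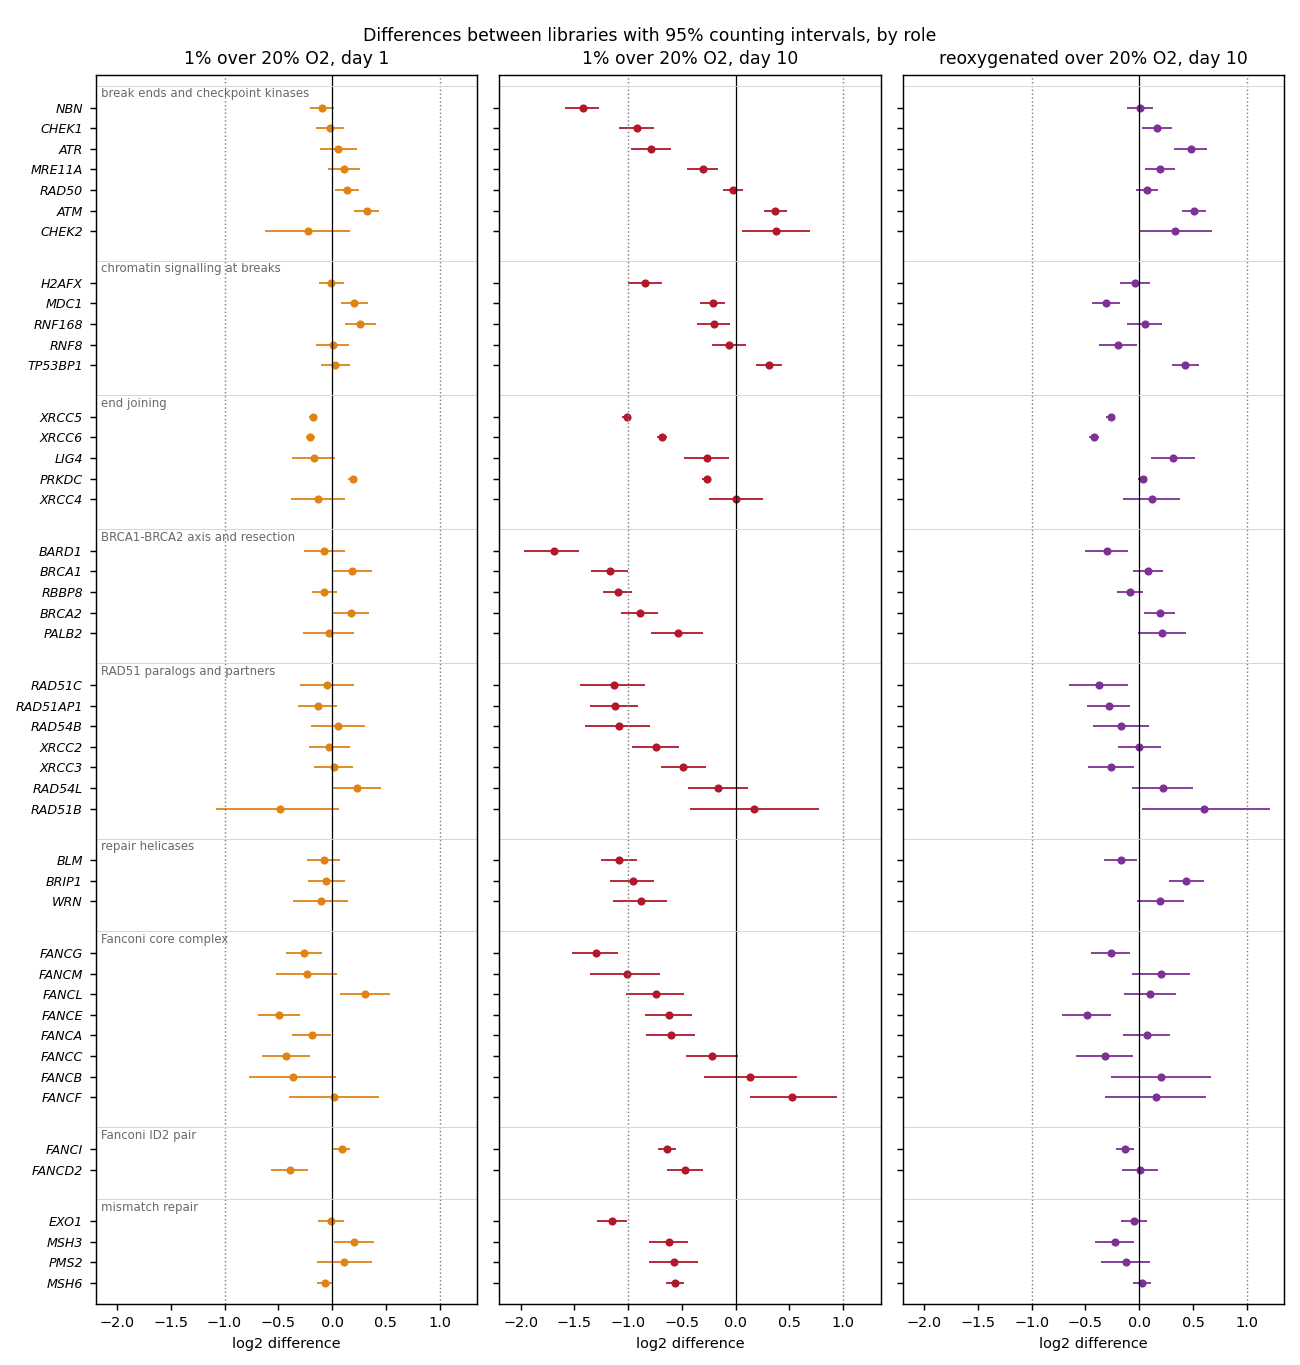
Log2 difference of CPM for the 46 genes by role, for 1% over 20% O2 at day 1 (left), 1% over 20% O2 at day 10 (middle) and reoxygenated over 20% O2 at day 10 (right), with points for pairs of libraries, lines for 95% counting intervals and dotted lines at the 2-fold rule. In the middle panel 12 points lie at or below −1, with BARD1 at −1.69, and in both outer panels 0 points do.

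In crosslink repair, 2 of the 8 genes of the Fanconi core complex and its anchor were past the rule. FANCG, a scaffold of the core complex, had 50.2 CPM at 1% and 60.1 CPM at 20% O2 after 1 day, and 23.0 CPM at 1% O2 and 47.1 CPM in reoxygenated cells against 56.8 CPM at 20% O2 after 10 days. FANCM, the translocase that anchors the complex on DNA, had 18.1 CPM at 1% and 21.3 CPM at 20% O2 after 1 day, and 10.8 CPM at 1% O2 and 25.4 CPM in reoxygenated cells against 22.0 CPM at 20% O2 after 10 days. FANCG differed by −1.30 (−1.52 to −1.09) and FANCM, with 113 counts at 1% O2, by −1.01 (−1.35 to −0.70), so that the rule of −1 lies within the interval of FANCM but not within that of FANCG.

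The rest of the core complex was mixed. FANCL, the ubiquitin ligase, FANCE, which contacts the substrate, and FANCA differed by −0.74, −0.62 and −0.60 at day 10, with intervals below 0. FANCC differed by −0.22 (−0.46 to 0.02) and FANCB by 0.14 (−0.30 to 0.57). FANCF, an adaptor of the complex, had the highest difference of the 46 at 0.53 (0.13 to 0.94), from 116 counts at 1% and 94 counts at 20% O2. It was 1 of the 2 genes whose highest library was that of 1% O2 at day 10, and CHEK2 was the other. The substrates of the complex, FANCI and FANCD2, differed by −0.64 (−0.73 to −0.56) and −0.47 (−0.64 to −0.30).

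All 4 mismatch repair genes of the list lay below 0 after 10 days at 1% O2. EXO1, the nuclease that removes the faulty strand and also resects breaks, had 108 CPM at 1% and 109 CPM at 20% O2 after 1 day, and 54.0 CPM at 1% O2 and 116 CPM in reoxygenated cells against 120 CPM at 20% O2 after 10 days. It differed by −1.15 (−1.29 to −1.01). MSH3 and MSH6, the mismatch-binding partners that recognise loops and single mispairs, differed by −0.62 (−0.81 to −0.44) and −0.56 (−0.65 to −0.48). PMS2, the endonuclease subunit, differed by −0.58 (−0.81 to −0.35). PMS2 shares 23.0% of its words with other genes, chiefly the pseudogene PMS2CL, and was the only one of the 46 with counts that were not exactly whole as deposited. With the PMS2CL row added, its difference was −0.43.

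**Figure D3:**
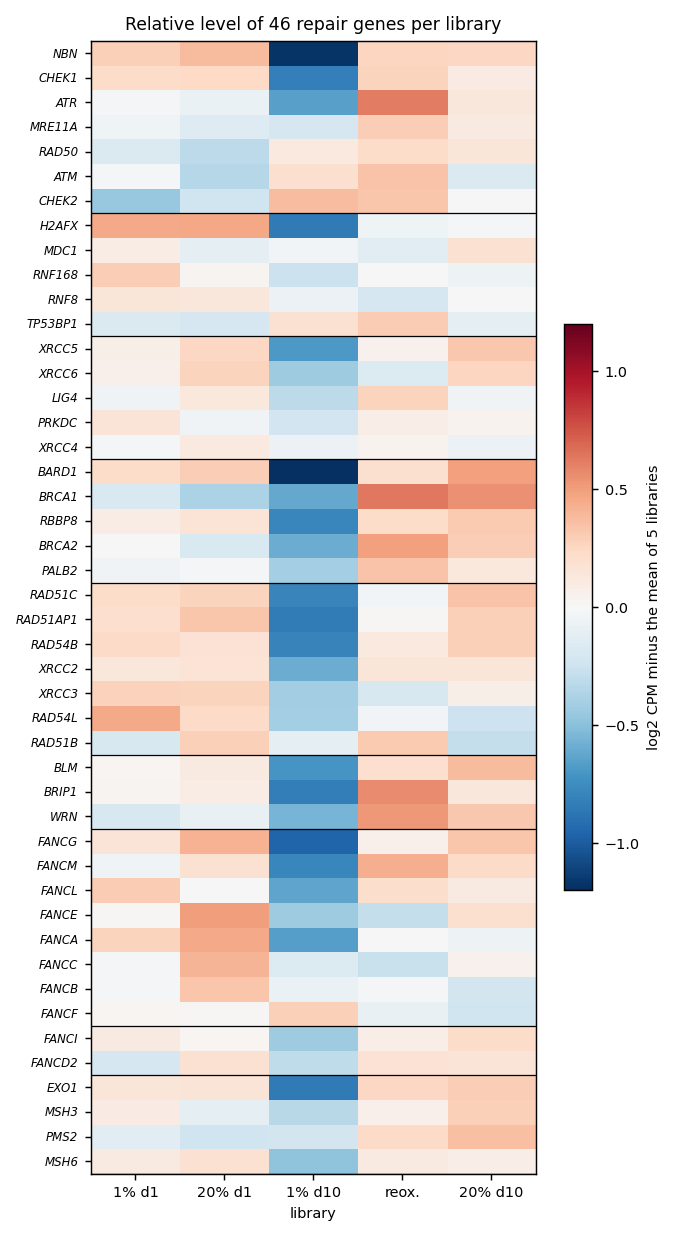
Level of each of the 46 genes in each library as log2 CPM minus the gene's mean over the 5 libraries, with blue for lower and red for higher and lines between roles. The column of 1% O2 at day 10 holds the lowest value of 34 genes, and the reoxygenated column holds the highest value of 14.

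Setting chronic against acute hypoxia, as the difference of both log2 differences, put 11 of the 46 genes lower and 0 higher, where 6.18% of all genes were lower and 12.5% higher. The median of the 46 was −0.60, against −0.02 over all genes. BRCA2, at −1.06 (−1.30 to −0.83), and FANCL, at −1.05 (−1.40 to −0.70), were past the rule here but not at day 10 alone. XRCC5, FANCM and RAD51AP1 were past it at day 10 but not here, at −0.83, −0.78 and −0.99. Counting intervals of this contrast are normal approximations. FANCD2 and FANCE lay below 0 on both days and had chronic minus acute differences of −0.08 (−0.31 to 0.16) and −0.13 (−0.41 to 0.16).

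In reoxygenated cells the 12 low genes were nearer to the 20% O2 library. All 12 lay above their level at 1% O2 day 10, 7 of them past the rule. Over the 46 genes 12 were higher and 0 were lower than at 1% O2 day 10, where 5.60% of all genes were higher and 11.2% lower, and the median was 0.58. Both comparisons share the library of 1% O2 at day 10, so a level in that library alone moves both. Against 20% O2 at day 10, the library against which the 12 genes were picked as low, 0 of the 46 were lower and 0 were higher, where 1.41% of all genes were lower and 3.40% higher. The median of the 46 was 0.03, or −0.04 with the deposited TMM table or with no expression filter, and that of the 12 was −0.17, within a range from −0.38 for RAD51C to 0.20 for FANCM. For 6 of the 12 the counting interval included 0.

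Members with small differences between reoxygenated cells and 20% O2 went both ways. Counting intervals lay below 0 for 14 genes and above 0 for 9, and they included 0 for 23, where 21.8% of all genes lay below and 19.5% above 0, so the share above 0 was near that of all genes. FANCE, at −0.48 (−0.72 to −0.26), and XRCC6, at −0.42 (−0.47 to −0.38), were the lowest. RAD51B, at 0.60 (0.03 to 1.22), ATM, at 0.51 (0.40 to 0.62), ATR, at 0.48 (0.33 to 0.63), BRIP1, at 0.44 (0.28 to 0.60), and TP53BP1, at 0.43 (0.30 to 0.55), were the highest. The S-phase markers had a median of −0.16 in this comparison, with 34 of 37 below 0.

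Between the libraries of 20% O2 the list differed little by the 2-fold rule and in its median. Between day 10 and day 1, 0 of the 46 genes were lower and 0 higher, where 1.31% of all genes were lower and 3.06% higher, and the median was 0.06. Smaller differences were common. Counting intervals lay wholly below 0 for 11 of the 46 and wholly above 0 for 17, against 2763 and 2720 of all 13940 genes. After BRCA1, the highest differences were those of PMS2 at 0.60 (0.37 to 0.83) and BRCA2 at 0.48 (0.33 to 0.64), and the lowest were those of RAD51B at −0.57 (−1.16 to −0.04), FANCB at −0.55 (−0.97 to −0.16) and FANCA at −0.51 (−0.70 to −0.33). The number of genes called low in chronic hypoxia therefore depends on the library it is set against. It was 9 against 20% O2 at day 1 (8.68% of all genes), where H2AFX, FANCA and CHEK1 were past the rule and BRCA1, RBBP8, RAD54B, BLM, XRCC5 and FANCM were not. It was 9 against the mean of both 20% O2 libraries (7.44% of all genes), 8 against 1% O2 at day 1 (6.56%) and 12 against reoxygenated cells (5.60%). Each of these comparisons has the library of 1% O2 at day 10 on top, for which the 12 genes were picked as low, so their direction is in large part set by that choice. BARD1, NBN and FANCG were past the rule with every one of them. These baselines were chosen after the data were seen.

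Across the 4 libraries of both days, edgeR's quasi-likelihood test with day as covariate and Benjamini-Hochberg adjustment over 13011 genes called 0 of the 46 genes for the oxygen level, where 0.761% of all genes were called. At an unadjusted p under 0.05 there were 4 of the 46 (8.70%, against 11.9% of all genes), namely FANCG, BARD1, NBN and RAD51AP1. FANCG had a log2 change of −0.74 (SE 0.28) with the lowest adjusted p of the list in this edgeR test, 0.283. Its difference lay below 0 on both days. DESeq2 and limma-voom called 0 of the 46 as well, where they called 0.377% and 1.23% of all genes. Each had 3 of the 46 at an unadjusted p under 0.05, a share that was not counted over all genes. The fit averages both days and has 1 residual degree of freedom, so a difference seen on day 10 alone counts as noise in it. Without the library of 1% O2 at day 1, an edgeR quasi-likelihood fit set the library of 1% O2 at day 10 against both 20% O2 libraries. It had no day term, so it differs from the main test in its model as well as in its libraries. With all 4 libraries, edgeR without the day term called 0 of all 13011 genes, so its 0 of the 46 is uninformative. Genes of the 46 with an adjusted p under 0.05 are counted next for the fit without 1% O2 at day 1. In it 20 fell and ATM rose, while 17.0% of all genes fell and 15.7% rose. NBN fell by 1.44 (SE 0.18, adjusted p = 0.00108), BARD1 by 1.55 (SE 0.22, adjusted p = 0.00167) and FANCG by 1.29 (SE 0.19, adjusted p = 0.00218) in this edgeR fit, whereas BRCA1 had a change of −0.73 with an adjusted p of 0.126. That fit assumes that the lone 1% O2 library varies like the 20% O2 libraries, and it holds day and oxygen together in part.

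Other repair genes, from lists chosen by function, were set beside the 46. Some genes of these lists are also counted among the S-phase markers, so the lists are not separate groups. Of 51 further genes of break repair and checkpoints 8 were lower and 0 higher at day 10, with a median of −0.51. The helicase gene RTEL1 differed by −2.34 (−2.87 to −1.94), the fork protection gene TIPIN by −1.81 (−2.08 to −1.58) and the nuclease gene DNA2 by −1.59 (−1.87 to −1.35). Of 21 further crosslink repair and structure nuclease genes 5 were lower and 0 higher, with a median of −0.36, and the resolvase gene GEN1 had the largest difference at −1.43 (−1.68 to −1.20). Of 15 further genes of mismatch repair, which include the replication clamp, its loader and polymerase delta, 5 were lower and 0 higher, with a median of −0.88, and the clamp loader gene RFC3 differed by −1.50 (−1.66 to −1.35).

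Repair of single damaged bases and of bulky lesions also acts outside replication. Of 23 nucleotide excision repair genes 0 were lower and 0 higher, with a median of −0.21, and they ran from GTF2H3 at −0.86 (−0.97 to −0.76) to ERCC6 at 0.77 (0.61 to 0.94) among those with at least 5 CPM. Of 18 base excision repair genes 3 were lower and 1 higher, with a median of −0.66, and APEX1, the main abasic site nuclease, differed by −1.14 (−1.29 to −1.00). Among 20 genes of the E2F, RB and MYB families 4 were lower and 0 higher, with a median of −0.57, including the pocket protein gene RBL1 at −1.43 (−1.62 to −1.25) and MYBL2 at −1.01 (−1.15 to −0.88).

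**Figure D4:**
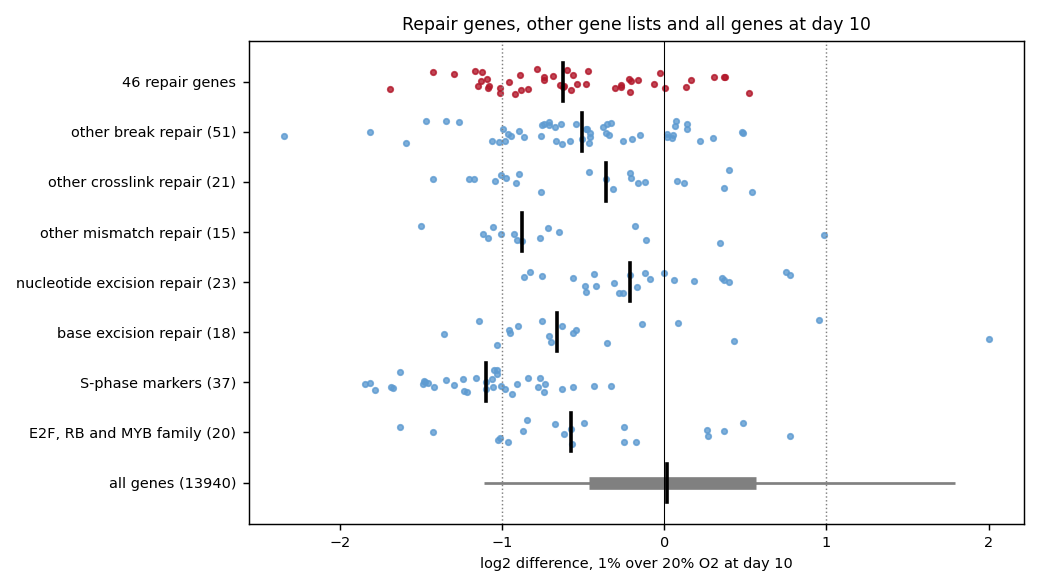
Log2 difference of CPM between 1% and 20% O2 at day 10 for the 46 repair genes (red), members of other lists (blue, number measured in brackets) and all 13940 genes (grey, box from the 25th to the 75th and line from the 5th to the 95th percentile), with black bars for medians. The median of the 46 is −0.62, between those of the S-phase markers (−1.10) and nucleotide excision repair (−0.21). Some genes of the other lists stand in more than 1 list.

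Several repair genes share a short stretch of promoter with a neighbour on the other strand. RefSeq places the start of such a neighbour within 1000 bases for 19 of the 40 repair genes with a promoter window, and 14 of these neighbours were measured. NBN, PRKDC, WRN, RAD54B, XRCC5 and FANCI have no window and were not searched for neighbours. At day 10, 8 of the 14 lay below 0, 2 were lower by the rule and 0 were higher, against 49.1%, 7.04% and 14.4% of all genes. RAD51AP1 and its neighbour C12orf4 start 421 bases apart and differed by −1.12 and −1.36, and PMS2 and AIMP2 start 166 bases apart and differed by −0.58 and −1.30. XRCC6 and DESI1, 252 bases apart, differed by −0.69 and −0.96, and PALB2 and DCTN5, 156 bases apart, by −0.54 and −0.53.

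BRCA1 and NBR2 went opposite ways. Their starts lie 193 bases apart, and NBR2 differed by 0.89 at day 10, against −1.17 for BRCA1. NBR1, which starts beside a far upstream start of BRCA1, differed by 0.69. Signs were opposite in 7 of the 14 pairs, which include NBR2 and NBR1 with BRCA1, CHEK2 (0.37) with HSCB (−0.63) and ATM (0.37) with NPAT (−0.30). The others were XRCC3 (−0.49) with ZFYVE21 (0.16), MRE11A (−0.31) with ANKRD49 (0.07) and XRCC4 (0.01) with TMEM167A (−0.14). The strand setting of the counting is not given in the sources used here, and the RefSeq range of BRCA1 (chr17:43044295-43170327, minus strand) covers the start of NBR2, so reads of overlapping transcripts may not have been told apart.

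**Figure D5:**
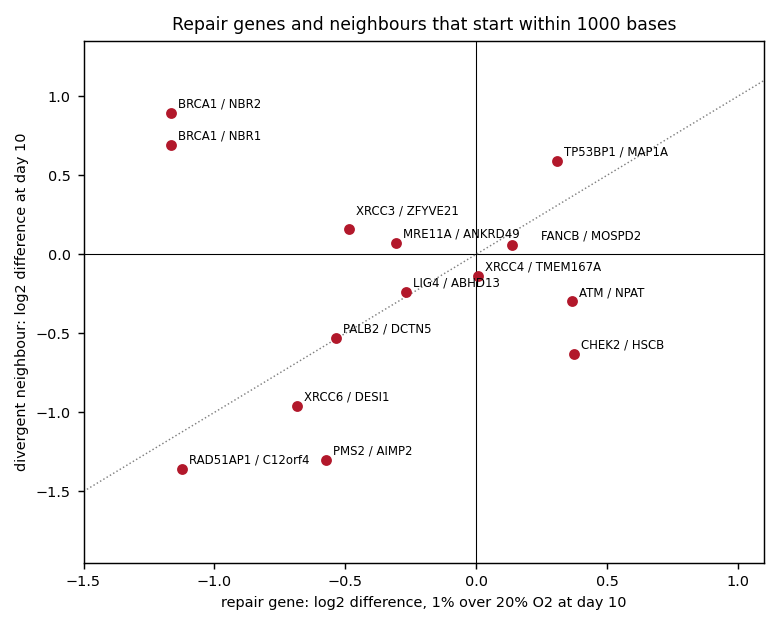
Log2 difference of CPM between 1% and 20% O2 at day 10 for repair genes (x axis) and for the neighbour that starts within 1000 bases on the other strand (y axis), with 1 point per pair and a dotted line of equal values. RAD51AP1 with C12orf4 lies at the lower left (−1.12 and −1.36), and BRCA1 with NBR2 lies at the upper left (−1.17 and 0.89).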

How the data were processed

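RNA of MDA-MB-231 cells was sequenced from 5 mRNA libraries, 1 per condition, per the labels' protocols. The submitters' processing notes name RSEM 1.2.15, Bowtie2 2.1.0, edgeR and the build hg38, and neither the gene annotation nor the strand setting is given in the sources used here. The authors deposited expected counts per gene symbol, which were rounded to whole numbers here. The second deposited table is a signal per gene, by its name and values CPM after TMM scaling. Its values were whole-read multiples for 100% of entries (tolerance 0.01 reads), so log2(value + 1) of it served as an alternative.

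The 13940 genes of 26475 that reached 1 CPM in any library were scaled with TMM factors (edgeR 4.0.16, R 4.3.3), and log2 CPM was computed with a prior count of 2. Totals per library ran from 7719797 to 12544953. Reads carry no molecular identifiers, so intervals may be too narrow. edgeR's quasi-likelihood test for oxygen with day as covariate took the genes that reached 1 CPM in 2 or more of 4 libraries. DESeq2 1.42.0 and limma-voom (limma 3.58.1) were alternatives. Nothing in the labels makes the libraries independent cultures, and p-values therefore speak of the spread among these libraries alone. The tests were checked on simulated data.

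Every one of the 46 genes is reported. Library values are given in full for the 12 members past the size rule at day 10. For the extremes of each role at least the difference at day 10 is given, and at most 3 members of other lists are named. The members, lists and rules were chosen with earlier results of these data known, and the 7-letter E2F words after the 8-letter ones had been searched. Promoter windows, starts and coordinates come from RefSeq (GRCh38.p14), where all 46 symbols matched and 40 had a window. Shared words are 50-base words of GENCODE transcripts found in another gene.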

Additional observations from a re-analysis of the deposited data

Results flagged for a closer look

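For 8 repair genes the acute and the chronic difference had opposite signs, with both counting intervals off 0. With 1 library per condition, the difference between days was not tested. All 8 (17.4% of the 46) lay slightly above 0 after 1 day and below 0 after 10 days, as did 3.80% of all genes. The reverse, below 0 after 1 day and above 0 after 10 days, held for 0 of the 46 and 1.54% of all genes. BRCA1 differed by 0.1891 at day 1 and −1.1669 at day 10, with a chronic minus acute difference of −1.356. BRCA2 differed by 0.1752 and −0.8894 (−1.0646), and FANCL by 0.3061 and −0.744 (−1.0501), in the same order. MSH3 differed by 0.2038 and −0.6239 (−0.8277) and FANCI by 0.0902 and −0.6421 (−0.7323). The changes of sign were smaller for RNF168 at 0.2612 and −0.2056 (−0.4668), PRKDC at 0.1926 and −0.2673 (−0.4599), and MDC1 at 0.2052 and −0.2137 (−0.4189). The 20% O2 library of day 10 was above that of day 1 for 7 of the 8, by 0.92 for BRCA1, 0.48 for BRCA2, 0.40 for MSH3, 0.30 for MDC1, 0.20 for FANCI, 0.08 for PRKDC and, with an interval that included 0, 0.11 for FANCL, and the part of this in their chronic differences was not tested.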

How the results depend on the processing

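The number of repair genes lower in chronic hypoxia was 12, and it was 6 when scaled by library totals and 25 with a 1.5-fold rule, where 4.79% and 19.7% of all genes were lower. Library totals move the median of all genes at day 10 to 0.14, against 0.02 with TMM factors, and they leave the median of the 46 genes at −0.50. The chronic minus acute count of 11 was 5 with library totals, where 4.20% of all genes were lower. It was 6 with a filter of 5 CPM, where 4.59% were lower, and 25 with the 1.5-fold rule. Of these 25 genes 23 were lower and 2 higher, where 18.7% of all genes were lower and 21.9% higher. With the 1.5-fold rule, 23 genes were higher in reoxygenated cells than at 1% O2 day 10 (17.9% of all genes), 1 was higher than at 20% O2 day 10 (10.1% of all genes), and 2 were higher at day 10 than at day 1 of 20% O2 (8.16% of all genes). The edgeR count of 0 ranged from 0 to 21 when a library was left out, with 21 without 1% O2 at day 1. Each of these fits has a lone library at 1% or at 20% O2. The fit that gave 21 also called a large share of all genes, as given above. With either 20% O2 library left out, no gene was called at all, and without 1% O2 at day 10 few were. The range is therefore not particular to the repair genes. The fit without 1% O2 at day 1 had no day term, so its model changed along with its libraries. DESeq2 size factors, a prior count of 0.5, the deposited TMM table and no expression filter kept every count of genes past the rule within 1.5 times of its value. No median of the 46 genes changed sign in the chronic, chronic minus acute or acute comparison under these settings, but that of reoxygenated cells against 20% O2 day 10 was 0.03 and became −0.04 with the deposited TMM table and with no filter. No paired analysis was possible because each condition has 1 library and no replicate number to share, and the day term of the edgeR fit already sets 1% and 20% O2 of the same day against each other.

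The intervals cover counting error only, and 1 library per condition gives no measure of the spread between cultures. The part of the share of cells in S phase was not tested. Scaling assumes that most genes did not change, and the chronic comparison had 7.04% of genes lower and 14.4% higher by the rule.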
